A study of Mus musculus with 29 samples.

Results

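The 37 genes described here encode the plasma proteins of blood coagulation and complement. They were chosen by symbol from a gene list and looked up by gene name in a mouse liver RNAseq table of 12992 genes. All 37 were found, and all 37 reached 1 CPM (count per 1000000 counts of a library) in at least 1 mouse of every comparison. By role they comprised 8 coagulation zymogens and cofactors, 3 fibrinogen chains, 5 anticoagulants, 3 kallikrein-kinin genes, 2 fibrinolysis genes, 7 genes of the classical and lectin arms of complement, 3 genes of C3 and the alternative arm, and 6 genes of the terminal pathway. One further table entry, also named Klkb1, is treated separately below.

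The study asked how loss of Maf1, a repressor of RNA polymerase III, affects the liver when it occurs in the whole animal or in hepatocytes alone. All 29 mice were C57BL/6 males aged 13 to 14 weeks, put on their diet at 4 to 5 weeks of age, fasted overnight and refed for 4 h before the liver was taken. The 6 groups were Chow-fed Maf1-/- (n = 5) with their Chow-fed Ctrl mice (n = 7), Chow-fed Maf1hep-/- (n = 4) with Chow-fed Ctrl mice of the floxed line (n = 4), and Maf1hep-/- on a High Fat (HF) diet with 60% of calories from lard (n = 4) with HF-fed Ctrl mice of the floxed line (n = 5). Maf1-/- mice lack the gene in every cell. Maf1hep-/- mice carried 2 floxed Maf1 alleles and an Alb-Cre transgene, which acts in hepatocytes and spares the other liver cells, and the Ctrl mice of the floxed line were described as floxed without Cre. The labels call the Ctrl mice of the whole-body cohort controls and give no allele.

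Hepatocytes secrete most of these proteins into plasma. Coagulation runs as a cascade in which each zymogen, once cleaved, cleaves the next, until thrombin turns fibrinogen into fibrin; antithrombin, heparin cofactor II and the protein C system limit it, and plasmin dissolves the clot. Complement is a parallel cascade in which the classical, lectin and alternative arms converge on cleavage of C3, after which C5 to C9 assemble a membrane pore. Several members, the fibrinogen chains among them, are acute phase proteins whose transcription in hepatocytes responds to interleukin 6.

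The 3 fibrinogen genes lie side by side on chromosome 3 and were high in the same mice, so their promoters are shown. Each sequence is the 120 bases before the RefSeq start site (GRCm38.p6), read 5′ to 3′ on the gene's strand. Capitals mark the letters CTGGGAA or TTCCCAG, an interleukin 6 response element, searched on both strands. The Gencode annotation places the start of Fga inside the window shown.
Fga, chr3:83026033-83026152, plus strand: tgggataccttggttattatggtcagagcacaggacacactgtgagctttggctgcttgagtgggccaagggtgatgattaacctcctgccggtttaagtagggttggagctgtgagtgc
Fgb, chr3:83049864-83049983, minus strand: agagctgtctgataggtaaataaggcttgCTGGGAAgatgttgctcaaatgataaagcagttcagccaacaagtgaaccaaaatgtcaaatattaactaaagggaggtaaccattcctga
Fgg, chr3:83007604-83007723, plus strand: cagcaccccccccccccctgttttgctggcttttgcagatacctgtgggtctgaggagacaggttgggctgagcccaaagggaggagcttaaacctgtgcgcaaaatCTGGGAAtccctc
In the 250 bases before the start, the element occurred in 4 of the 29 members that matched a RefSeq promoter (F9, Fgb, Fgg and Masp2), and in 9.1% of 32851 promoters of the same length. Fgb and Fgg hold it in the stretch shown and Fga does not, and a match describes letters only.

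Maf1 itself followed the labels. It was at 0.0771 to 1.09 CPM in Maf1-/- livers against 4.93 to 10.8 CPM in their Ctrl livers, at 2.83 to 4.21 CPM in Chow-fed Maf1hep-/- against 14.9 to 18.8 CPM in Ctrl livers, and at 1.38 to 1.81 CPM in HF-fed Maf1hep-/- against 12.6 to 18.9 CPM in Ctrl livers. Library totals were 25.5 to 32.3 M counts (M, 1000000) in HF-fed mice and 43.6 to 75.7 M in Chow-fed mice. HF libraries were sequenced at 150 cycles on 2 lanes, and their counts were whole throughout, while in a Chow library 69.8% to 74.8% of the counts were whole, zeros included. The paper describes quantification with RSEM and names no separate counting for the HF libraries. Why only their counts were whole is not given in the sources used here. Diet, sequencing and counting therefore cannot be told apart in these files. The summed level of 10 hepatocyte markers was 95700 to 147000 CPM over all livers, of 12 Kupffer cell markers 257 to 720 CPM, and none of 7 lymphocyte markers was in the table. In whole liver, fewer cells of a type and less RNA per cell cannot be told apart.

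Plasma protein transcripts were among the most abundant in the liver. The members together took 3.88% to 5.3% of all counts in HF-fed mice and 2.73% to 4.48% in Chow-fed mice, and 22 of the 37 were among the 500 genes with the highest level per kilobase of transcript. Over the 11 Chow-fed Ctrl livers, the highest levels were those of the fibrinogen gamma chain Fgg at 1810 ± 668 CPM per kb (SD), of C3, the protein on which all arms of complement converge, at 1580 ± 265, of the alpha chain Fga at 1520 ± 534, of the beta chain Fgb at 1190 ± 462, and of Kng1, the precursor of bradykinin, at 988 ± 154 CPM per kb. Levels of Fgg, C3, Fga and Fgb overlapped within their SDs between mice, and their order within single mice was not tested. The lowest were Masp1, a protease of the lectin arm, at 12.8 ± 1.96 CPM per kb, F7, the factor that starts coagulation with tissue factor, at 23.4 ± 4.41, the protein C cofactor Pros1 at 28.1 ± 5.22, C2 at 29.3 ± 6.08 and F11 at 30.6 ± 9.65 CPM per kb. The last 4 overlapped within their SDs between mice.

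**Figure D1:**
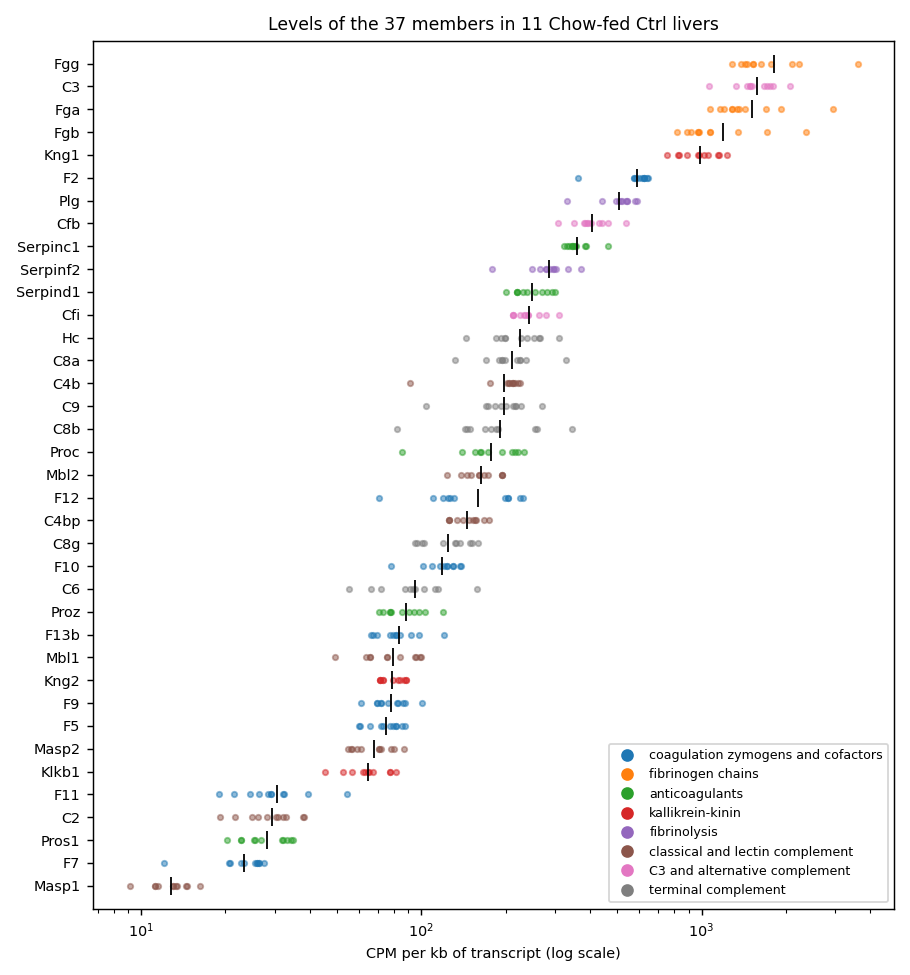
Level of each member in 11 Chow-fed Ctrl livers, in CPM per kb of transcript on a log scale; each point is 1 mouse, the black tick is the mean and colour gives the role. The fibrinogen chains, C3 and Kng1 stand at the top, between 988 and 1810 CPM per kb on average, and Masp1 at the bottom at 12.8.

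Variation between Ctrl mice fed alike was uneven among the members. Averaged over the 3 Ctrl groups, the coefficient of variation (CV) had a median of 13.1% over the members, against 12.5% over the 3008 genes at or above the lowest member's level. The largest were those of C8b, a chain of the membrane pore, at 29%, of Fgb at 28.6%, Fgg at 27.8% and Fga at 27.4%, and of the pore component C6 at 22.2%. The smallest were those of C4bp, an inhibitor of the classical arm, at 5.92%, of heparin cofactor II (Serpind1) at 7.2%, of plasminogen (Plg) at 8.76%, of antithrombin (Serpinc1) at 8.94% and of Proz, a cofactor of factor Xa inhibition, at 9.46%.

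The fibrinogen spread came largely from 1 mouse. In the Chow-fed Ctrl mice of the floxed line, Fga was at 7630, 3020, 2770 and 3110 CPM, Fgb at 8980, 4100, 3710 and 4090 CPM, and Fgg at 6130, 2460, 2170 and 2430 CPM. Mouse 1 was the highest of its group for all 3 chains, and the other 3 mice lay close together. The same liver was highest of its group for Orm2, an acute phase protein, at 60.7 CPM against 9.75 to 18.8 CPM in the other 3. In the whole-body cohort, mouse 1 of the Ctrl group was the highest of its group for 20 of the 37 members, mouse 2 the lowest for 17 and mouse 7 the lowest for 16.

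In Chow-fed Maf1-/- livers, which lack Maf1 in all cells, no member passed the test against Ctrl livers, and differences were small. A member was called where the p-value of edgeR's quasi-likelihood test, adjusted by Benjamini-Hochberg over all genes tested, was under 0.05. None of the 37 was called, against 0.0156% of 12796 genes, and none was called by DESeq2 or by limma-voom without RUVr factors. With 1 and 3 RUVr factors, which remove variation that the groups do not explain, limma-voom called 7 and 12 members, among 4299 and 6131 genes. With all 29 mice in 1 fit edgeR called 4, among 2266 genes. In each of these fits a smaller share of members than of all genes was called. At an unadjusted p under 0.05 there were 6 members (C4b, C8g, F13b, F2, Kng2 and Pros1), against a background of 26.3% of all genes, so the members' share of 16.2% was below it. The log2 fold change (log2(FC), Maf1-/- over Ctrl) ranged over the members between -0.58 and 0.46 with a median of 0.04, against 0.00 over all genes, 20 members being higher and 17 lower. No member's groups were without overlap, against 0.539% of all genes.

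The lower values in Maf1-/- livers included both complement and coagulation transcripts. C4b, the source of the C4 protein of the classical and lectin arms, was at 754, 972, 605, 456 and 549 CPM in Maf1-/- mice, against a lowest, median and highest of 492, 1110 and 1210 CPM in Ctrl mice (log2(FC) -0.58, SE 0.215, adjusted p = 0.157). All Ctrl mice but mouse 2 were at 943 CPM or more, so that the overlap rested on that mouse and on Maf1-/- mouse 2. C8g, a chain of the pore component C8, was at 141, 110, 95.7, 120 and 127 CPM in Maf1-/- mice, against 111, 158 and 183 CPM in Ctrl mice (log2(FC) -0.37, SE 0.122, adjusted p = 0.152). Prothrombin (F2) was at 989, 991, 740, 879 and 899 CPM in Maf1-/- mice, against 721, 1240 and 1280 CPM in Ctrl mice (log2(FC) -0.33, SE 0.138, adjusted p = 0.165). For C8g and F2 also, Ctrl mouse 2 was the lowest of its group, and every other Ctrl value was above all 5 Maf1-/- values.

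The higher values in Maf1-/- livers were those of Pros1, F13b and Kng2. Pros1 was at 96.1, 112, 130, 132 and 115 CPM in Maf1-/- mice, against 66.8, 88.2 and 115 CPM in Ctrl mice (log2(FC) 0.36, SE 0.141, adjusted p = 0.159). F13b, the carrier subunit of the fibrin cross-linking factor XIII, was at 263, 173, 311, 307 and 287 CPM, against 157, 188 and 287 CPM in Ctrl mice (log2(FC) 0.46, SE 0.193, adjusted p = 0.167). Kng2, a second kininogen gene of the mouse, was at 206, 153, 210, 293 and 261 CPM, against 163, 189 and 203 CPM in Ctrl mice (log2(FC) 0.33, SE 0.15, adjusted p = 0.181). In each of the 3 the groups overlapped, and Maf1-/- mouse 2 lay among the Ctrl values for F13b and below them for Kng2. Reads of Kng1 and Kng2, and of C4b and its copy C4a, may be shared between the near-identical genes, so their separate levels are uncertain.

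In edgeR's fit of this cohort alone, the number of members called depended on Ctrl mouse 2. Without it, 9 members were called (C4b, C8g, F12, F13b, F2, F7, Mbl1, Proc and Pros1), among 35.4% of all genes. The log2(FC) was then -0.69 for C4b (SE 0.168, adjusted p = 0.00993) and 0.60 for F13b (SE 0.161, adjusted p = 0.0147). Base composition moved with these differences, in a split at 50% GC chosen after the values were seen. Of the 13 members with 50% GC or more, 11 were lower in Maf1-/- livers, as were 79% of all genes of that GC content, and of the 24 members with less, 6 were lower, as were 22.9% of all such genes. With an offset for GC content, 7 of the 13 and 16 of the 24 were lower, and the log2(FC) was -0.35 for C4b (adjusted p = 0.243), -0.21 for C8g, -0.13 for F2, 0.19 for F13b, 0.12 for Pros1 and 0.17 for Kng2. All 5 erythroid markers in the table and 10 of 12 Kupffer cell markers were lower in Maf1-/- livers, with summed levels of 59 to 158 CPM against 65.2 to 209 CPM in Ctrl livers, and of 324 to 480 CPM against 307 to 574 CPM. Their part in the members' values was not tested.

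In Chow-fed Maf1hep-/- livers, every member was within 0.3 of its Ctrl level on the log2 scale. None of the 37 was called, by edgeR, DESeq2 or limma-voom, against 0.0159% of 12570 genes called by edgeR. The median log2(FC) was 0.01 over the members and -0.01 over all genes, with a range between -0.27 and 0.28 and a median SE of 0.11. C4b was the 1 member with an unadjusted p under 0.05, a share of 2.7% against 2.39% of all genes, and the 1 member without overlap, against 1.45% of all genes. It was at 1530, 1360, 1390 and 1290 CPM in Maf1hep-/- mice, against 1190, 1140, 1090 and 1160 CPM in Ctrl mice (log2(FC) 0.28, SE 0.0884, adjusted p = 0.997). The lowest Maf1hep-/- mouse was above the highest Ctrl mouse, a difference that did not hold after adjustment by Benjamini-Hochberg in edgeR. Factor V (F5), the cofactor of factor Xa, was at 534, 662, 579 and 475 CPM against 486, 451, 446 and 541 CPM (log2(FC) 0.22, SE 0.117, adjusted p = 0.997), and C9, which polymerises into the pore, at 492, 356, 485 and 452 CPM against 411, 465, 374 and 348 CPM (log2(FC) 0.16, SE 0.129, adjusted p = 0.997), Maf1hep-/- before Ctrl mice. For both the groups overlapped.

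**Figure D2:**
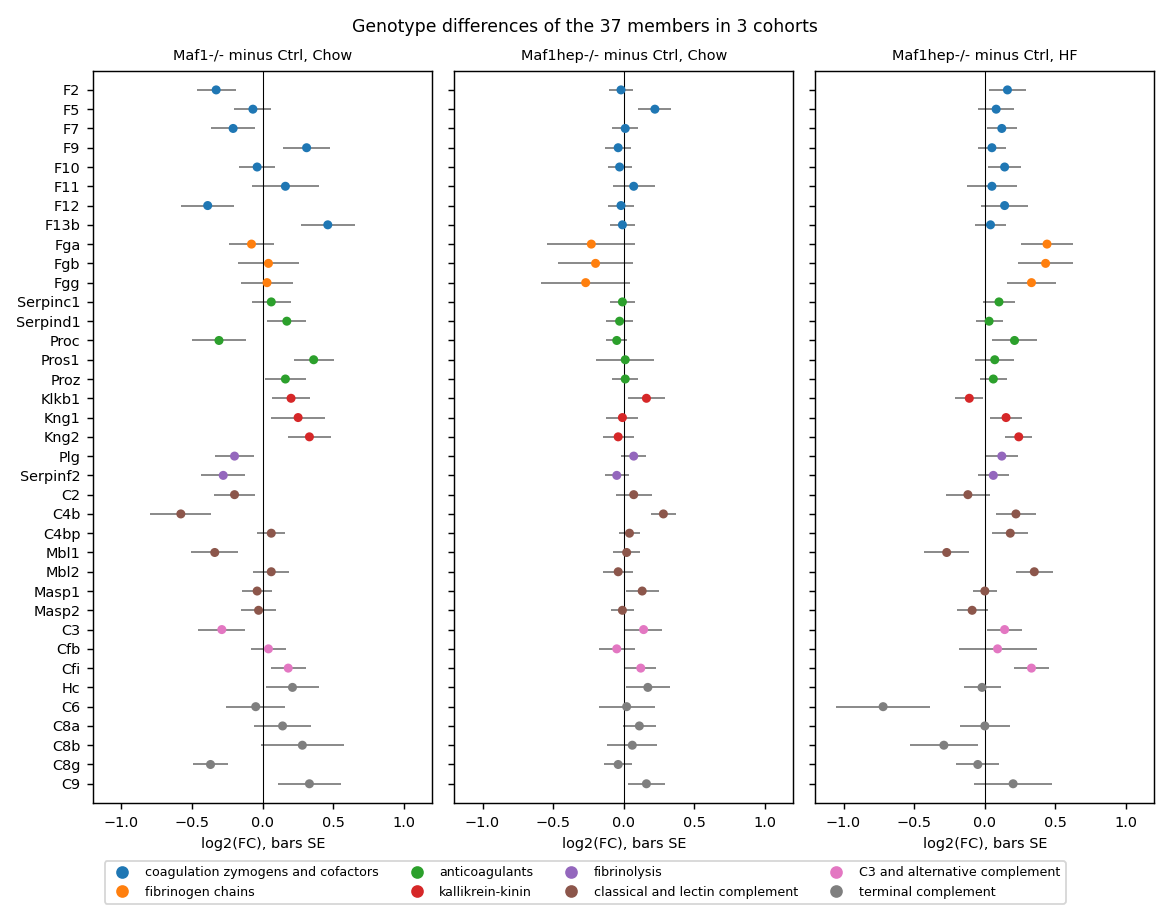
Difference of each member between genotypes in the 3 cohorts, as log2(FC) with its SE as bars and colour for the role; values right of 0 are higher in the knockout. Whole-body values run between -0.58 and 0.46, Chow-fed Maf1hep-/- values between -0.27 and 0.28, and HF-fed Maf1hep-/- values lie mostly right of 0, with C6 at -0.72.

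On the HF diet, 29 of the 37 members were higher and 8 lower in Maf1hep-/- than in Ctrl livers, but none passed the test. The median log2(FC) was 0.09 over the members against 0.00 over all genes, with all 8 zymogens and cofactors, all 3 fibrinogen chains, all 5 anticoagulants and both fibrinolysis genes on the higher side. edgeR called 0.0162% of 12378 genes and none of the members. DESeq2 called none of the members among 56 genes, and limma-voom none without and 1, Cfi, with 3 RUVr factors (adjusted p = 0.0456, among 175 genes). At an unadjusted p under 0.05 there were 5 members (Cfi, Fga, Fgb, Kng2 and Mbl2), or 13.5%, against 6.04% of all genes. No member's groups were without overlap, against 1.75% of all genes. With the replicate number as a block, none was called either, among 45 genes called in all.

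For Mbl2, Cfi and Kng2, a single Ctrl mouse reached the Maf1hep-/- values. Mbl2, a mannose-binding lectin that starts the lectin arm, was at 239, 219, 266 and 299 CPM in Maf1hep-/- mice, against 240, 197, 173, 179 and 206 CPM in Ctrl mice (log2(FC) 0.35, SE 0.129, adjusted p = 0.745). Cfi, the protease that inactivates C3b and C4b, was at 577, 627, 722 and 809 CPM, against 564, 491, 547, 503 and 599 CPM in Ctrl mice (log2(FC) 0.33, SE 0.124, adjusted p = 0.77). Kng2 was at 199, 214, 222 and 205 CPM, against 178, 172, 155, 172 and 204 CPM in Ctrl mice (log2(FC) 0.24, SE 0.094, adjusted p = 0.787). That Ctrl mouse was mouse 1 for Mbl2 and mouse 5 for Cfi and Kng2, and Maf1hep-/- mice 3 and 4 were the highest of all 9 for Mbl2 and Cfi.

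Among the fibrinogen chains, the values of the Maf1hep-/- mice were spread widely. Fga was at 3410, 3560, 5510 and 5790 CPM in HF-fed Maf1hep-/- mice, against 3570, 3090, 3500, 2950 and 3600 CPM in Ctrl mice (log2(FC) 0.44, SE 0.184, adjusted p = 0.803). Fgb was at 3040, 4190, 5280 and 6340 CPM, against 3340, 3320, 3470, 3300 and 3970 CPM (log2(FC) 0.43, SE 0.192, adjusted p = 0.811). Fgg, named after its values were seen as the remaining chain, was at 2340, 2750, 3810 and 4120 CPM, against 2570, 2430, 2680, 2350 and 2860 CPM (log2(FC) 0.33, SE 0.174, adjusted p = 0.842). Mice 3 and 4 exceeded every Ctrl mouse for all 3 chains, and mouse 1 lay within or below the Ctrl range.

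For C6, C8b and C9 of the terminal pathway, that first mouse was the lowest of the cohort. C6, named after its values were seen, was at 67.4, 248, 204 and 280 CPM in HF-fed Maf1hep-/- mice, against 288, 282, 445, 336 and 273 CPM in Ctrl mice (log2(FC) -0.72, SE 0.332, adjusted p = 0.812). Mouse 1 was far below the others, and without it the log2(FC) was -0.43. C8b was at 158, 352, 327 and 408 CPM, against 293, 332, 473, 403 and 381 CPM in Ctrl mice, and C9 at 196, 391, 529 and 607 CPM, against 322, 289, 410, 360 and 481 CPM. Over the 37 members, Maf1hep-/- mouse 1 was the lowest of the 9 mice for 13, while mice 3 and 4 were the highest for 12 and 14.

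**Figure D3:**
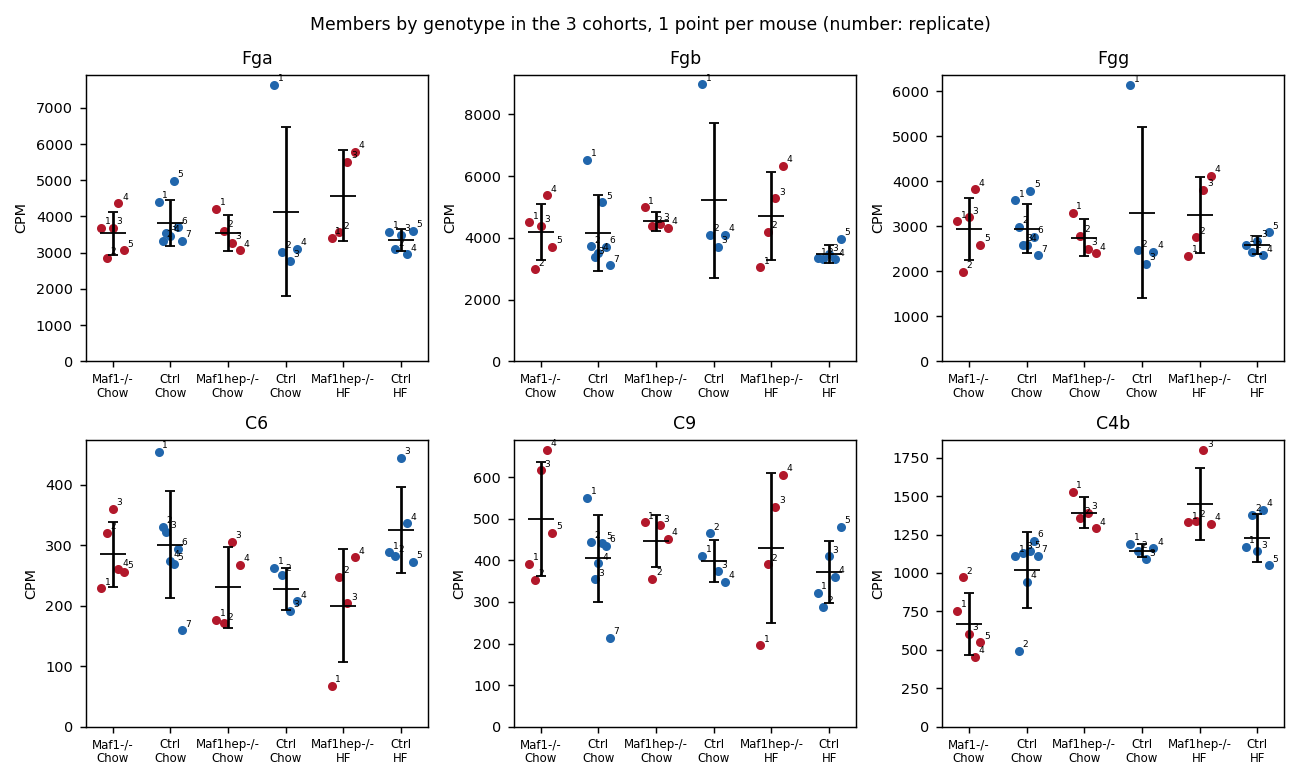
CPM of Fga, Fgb, Fgg, C6, C9 and C4b in every mouse of the 6 groups, with mean and SD; numbers are replicate numbers, and red points are knockouts. Chow-fed Ctrl mouse 1 of the floxed line stands alone for the fibrinogen chains at 6130 to 8980 CPM, HF-fed Maf1hep-/- mice 3 and 4 lie above their Ctrl mice, and HF-fed Maf1hep-/- mouse 1 is lowest for C6 at 67.4 CPM and for C9 at 196 CPM within the HF groups.

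None of the other genes listed was called between the HF-fed groups. Of 16 acute phase regulators and targets, 14 were higher in Maf1hep-/- livers, with a median log2(FC) of 0.24, and none was called. The pentraxin Apcs had a log2(FC) of 0.91 (adjusted p = 0.201) and Orm2 one of 1.22 (adjusted p = 0.472), both named after their values were seen. All 5 erythroid markers in the table were higher, with a median log2(FC) of 1.49 and summed levels of 58.1 to 151 CPM against 54.9 to 95.2 CPM in Ctrl livers, as were 8 of 12 Kupffer cell markers (360 to 720 CPM against 401 to 589 CPM). Their part in the members' values was not tested.

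Whether the effect of Maf1hep-/- differed between diets was tested in 1 fit of the 17 mice of the floxed line. No member passed, as with all 12970 genes (0%), nor did DESeq2 or limma-voom call any. Mbl2 was the 1 member with an unadjusted p under 0.05, against 4.62% of all genes. Its effect was 0.40 higher on the HF than on the Chow diet on the log2 scale (SE 0.17, adjusted p = 0.998), that of Kng2 0.28 higher (SE 0.143, adjusted p = 0.998) and that of Fgb 0.64 higher (SE 0.342, adjusted p = 0.998). In Chow-fed mice, Mbl2 was at 145, 185, 183 and 141 CPM in Maf1hep-/- and at 164, 175, 158 and 175 CPM in Ctrl livers, and Kng2 at 205, 160, 182 and 150 CPM against 199, 182, 167 and 167 CPM. For Fgb, the difference included Chow-fed Ctrl mouse 1, and with single mice left out it ranged between 0.24 and 0.80.

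The whole-body and hepatocyte-specific effects on chow were compared in 1 fit of all 29 mice. By edgeR no member passed, as with all 12992 genes (0%), and at an unadjusted p under 0.05 there were 3 members (C3, C4b and F13b), or 8.11%, against 15.7% of all genes. C4b had the smallest p: its effect was lower in Maf1-/- than in Maf1hep-/- livers by a log2(FC) of -0.89 (SE 0.271, adjusted p = 0.303), with the whole-body value below 0 and the hepatocyte-specific value above it. C3 was at 6110, 8430, 6420, 6750 and 5130 CPM in Maf1-/- mice, against 5440, 8600 and 10600 CPM as lowest, median and highest of their Ctrl mice, and at 8540, 9750, 8670 and 7720 CPM in Maf1hep-/- mice, against 9230, 7640, 6820 and 7760 CPM in theirs (difference of effects -0.47, SE 0.21, adjusted p = 0.307). The difference was 0.44 for F13b (SE 0.213, adjusted p = 0.316). Groups overlapped for C3 in both cohorts. Limma-voom called 2 members with 1 RUVr factor and 8 with 3, among 1989 and 3244 genes called in all, a smaller share of members than of genes. C4b was called with either number of factors (limma-voom adjusted p = 0.000149 and 4.76e-05). Without whole-body Ctrl mouse 2 edgeR called 3 members, and without Maf1-/- mouse 2 it called 1.

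Between diets, many members were called, though a smaller share of them than of all genes. In HF-fed Ctrl livers, 17 of the 37 members (45.9%) were called against Chow-fed Ctrl livers of the floxed line, against 53.6% of 12970 genes. Of these, 5 were higher, against 25.3% of all genes, and 12 lower, against 28.3%. In HF-fed Maf1hep-/- livers, 13 members (35.1%) were called against Chow-fed Maf1hep-/- livers, against 46.9% of all genes, with 7 higher (background 21.8%) and 6 lower (25.1%). A log2(FC) beyond 1 in either direction was reached by C2, Cfb, F12 and Masp1 in both genotypes, or 10.8% of members, against 17.6% of genes in Ctrl and 15.8% in Maf1hep-/- livers. All 9 members called in both genotypes had the same direction; the genotypes share no mice, though all were fitted together. The other 8 called in Ctrl and 4 called in Maf1hep-/- livers are not shown to differ by genotype, since no member passed the test of that difference.

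The largest drops were those of 2 neighbours on chromosome 17. Cfb (chr17:34856374-34862518), the protease of the alternative arm, was at 1.55, 1.96, 2.65, 1.62 and 1.71 CPM in HF-fed Ctrl mice, against 1470, 1080, 1070 and 1050 CPM in Chow-fed Ctrl mice (log2(FC) -9.26, SE 0.255, adjusted p = 3.87e-15). It was at 2.1, 1.16, 3.02 and 1.84 CPM in HF-fed Maf1hep-/- mice, against 1180, 1040, 1200 and 1090 CPM on chow (log2(FC) -9.11, SE 0.28, adjusted p = 2.56e-14). Both diets were thus fully apart. C2 (chr17:34862604-34898265), the corresponding protease of the classical and lectin arms, was at 12.8, 12.9, 15.8, 14.5 and 12.9 CPM in HF-fed Ctrl mice, against 74.4, 80.1, 57 and 69.2 CPM (log2(FC) -2.34, SE 0.145, adjusted p = 3.27e-10). It was at 9.56, 12.4, 17.2 and 12 CPM in HF-fed Maf1hep-/- mice, against 72.7, 61.4, 85.2 and 76.2 CPM (log2(FC) -2.53, SE 0.158, adjusted p = 4.41e-10).

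Klkb1, plasma kallikrein, which cleaves kininogens and factor XII, was at 200, 168, 183, 175 and 189 CPM in HF-fed Ctrl mice, against 239, 325, 277 and 353 CPM on chow (log2(FC) -0.70, SE 0.11, adjusted p = 5.06e-05). In Maf1hep-/- mice it was at 172, 153, 189 and 169 CPM on HF, against 297, 356, 371 and 311 CPM on chow (log2(FC) -0.96, SE 0.118, adjusted p = 3.54e-06). The second entry of that name was at 0 CPM in 8 HF-fed mice and at 0.0327 CPM in the ninth, against 90.5 to 114 CPM in the Chow-fed mice of the floxed line.

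Cfb, C2 and Klkb1 are the 3 members whose exons overlap another gene on the same strand. The shared part of the transcript was 79.5% for Cfb and 42.8% for C2, both with Gm20547, and 43.2% for Klkb1 with Gm45753. Gm20547 was at 0 CPM in all HF-fed mice and at 0 to 25.9 CPM in Chow-fed mice. Among the 208 genes with more than 40% of their transcript shared in this way, the median diet log2(FC) was -5.90 in Ctrl and -5.78 in Maf1hep-/- livers, and 90.9% and 91.3% were called lower by more than 1. Among the 11779 genes sharing none, the medians were 0.03 and 0.04, and 10.3% and 8.95% were called lower by more than 1. The drops of these 3 members thus stood in a class of genes that fell almost throughout, and diet, sequencing and counting cannot be told apart in them. Of the 34 members sharing no exon on the same strand, 14 were called in Ctrl and 10 in Maf1hep-/- livers. These were 41.2% and 29.4%, against 52.4% and 45.6% of all genes sharing none, a count made after seeing the data. Overlap with exons on the other strand was largest for Masp2 at 54.9% and Serpinc1 at 34.4%, and its part was not tested.

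**Figure D4:**
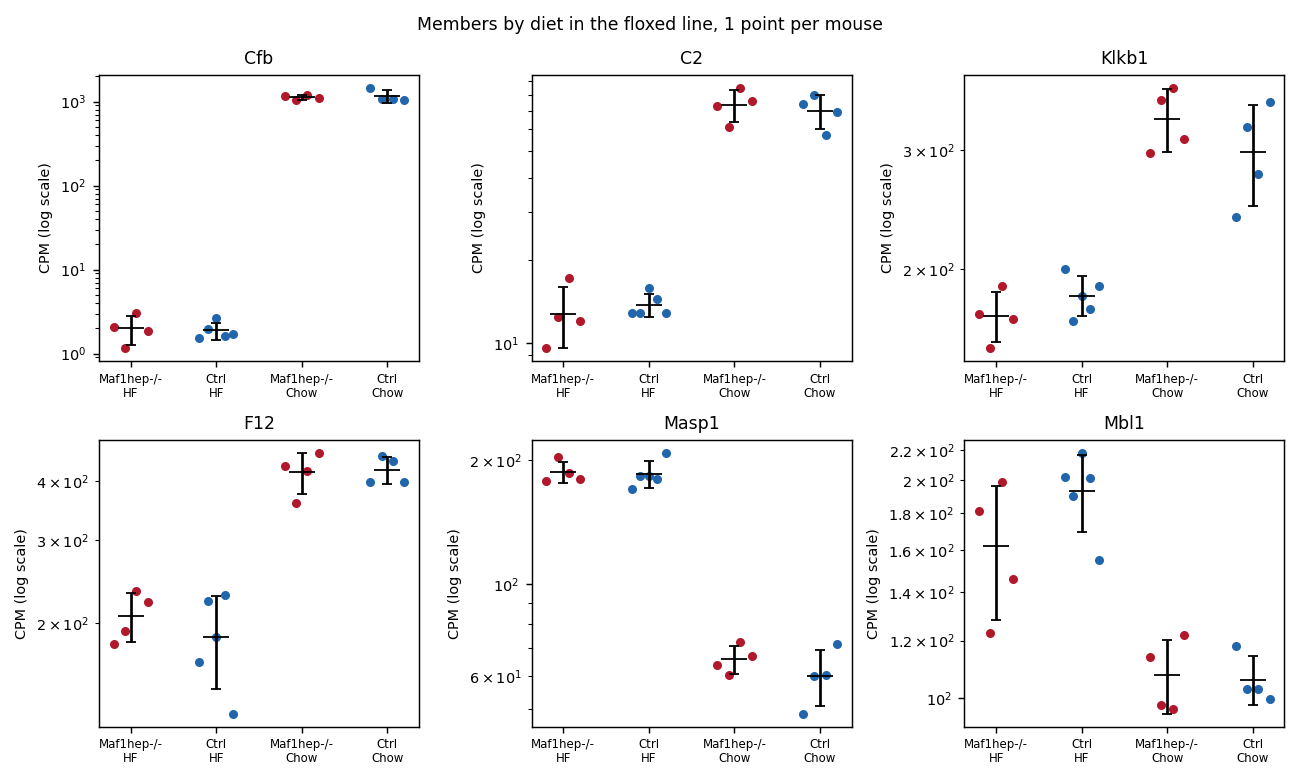
CPM on a log axis of Cfb, C2, Klkb1, F12, Masp1 and Mbl1 in every mouse of the floxed line, with mean and SD; red points are Maf1hep-/- and blue points Ctrl mice. HF-fed mice of both genotypes lie below the Chow-fed ones for Cfb (1.16 to 3.02 against 1040 to 1470 CPM), C2, Klkb1 and F12, and above them for Masp1 and Mbl1.

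Masp1, Mbl1 and Mbl2 of the lectin arm were higher on the HF diet, Mbl2 in Maf1hep-/- livers. Masp1 was at 170, 183, 183, 180 and 208 CPM in HF-fed Ctrl mice, against 48.7, 59.9, 60.2 and 71.7 CPM on chow (log2(FC) 1.63, SE 0.102, adjusted p = 4.16e-10), and at 178, 203, 186 and 180 CPM in HF-fed Maf1hep-/- mice, against 63.9, 60.4, 72.5 and 67.1 CPM (log2(FC) 1.5, SE 0.105, adjusted p = 2.43e-09). No Chow-fed mouse reached the level of any HF-fed mouse. Mbl1, a second mannose-binding lectin, was at 202, 190, 218, 201 and 155 CPM against 118, 103, 103 and 99.6 CPM in Ctrl mice (log2(FC) 0.88, SE 0.135, adjusted p = 3.59e-05). Chow-fed Ctrl mice of the whole-body cohort had 77.1 to 156 CPM of Mbl1. In Maf1hep-/- mice Mbl1 was at 181, 123, 199 and 146 CPM on HF against 114, 97.8, 96.6 and 122 CPM on chow (log2(FC) 0.60, SE 0.14, adjusted p = 0.00225), where HF-fed mouse 2 lay just above Chow-fed mouse 4. Mbl2 rose in Maf1hep-/- livers, with 239, 219, 266 and 299 CPM on HF against 145, 185, 183 and 141 CPM on chow (log2(FC) 0.65, SE 0.124, adjusted p = 0.000414). In Ctrl livers, where it was at 240, 197, 173, 179 and 206 CPM against 164, 175, 158 and 175 CPM, Mbl2 did not pass (log2(FC) 0.25, SE 0.118, adjusted p = 0.0786). Masp2, the protease that cleaves C4 and C2 in this arm, was called in neither genotype (log2(FC) -0.10 and -0.18).

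C4bp was higher on the HF diet in both genotypes of the floxed line. It was at 515, 517, 556, 530 and 462 CPM in HF-fed Ctrl mice, against 410, 381, 381 and 381 CPM on chow (log2(FC) 0.42, SE 0.0983, adjusted p = 0.00179), and at 531, 498, 697 and 628 CPM in HF-fed Maf1hep-/- mice, against 419, 412, 398 and 374 CPM (log2(FC) 0.56, SE 0.103, adjusted p = 0.000311). The diets did not overlap in either genotype of this line, but Chow-fed Ctrl mice of the whole-body cohort had 428 to 533 CPM, which overlaps the HF-fed Ctrl mice. With the GC offset the C4bp log2(FC) was 0.21 in Ctrl livers, no longer called (adjusted p = 0.145), and 0.34 in Maf1hep-/- livers (adjusted p = 0.0339). C3 and C4b had log2(FC) values of 0.03 and 0.11 in Ctrl and 0.04 and 0.05 in Maf1hep-/- livers, none called. Cfi was called in Maf1hep-/- livers (log2(FC) 0.43, SE 0.121, adjusted p = 0.00769).

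Of the contact and coagulation factors, factor XII fell and factor V rose. F12, the zymogen that starts the contact pathway, was at 166, 223, 187, 230 and 129 CPM in HF-fed Ctrl mice, against 399, 452, 441 and 399 CPM on chow (log2(FC) -1.17, SE 0.141, adjusted p = 2.55e-06), and at 181, 193, 234 and 222 CPM in HF-fed Maf1hep-/- mice, against 431, 360, 421 and 458 CPM (log2(FC) -1, SE 0.151, adjusted p = 3.79e-05). The diets were apart in this line, but Chow-fed Ctrl mice of the whole-body cohort had 139 to 389 CPM, and with all 11 Chow-fed Ctrl mice together the F12 log2(FC) was -0.68 (adjusted p = 0.00484). With the GC offset it was -0.70 in Ctrl and -0.59 in Maf1hep-/- livers, still called in both. F5 was at 780, 616, 651, 639 and 821 CPM in HF-fed Ctrl mice, against 486, 451, 446 and 541 CPM (log2(FC) 0.55, SE 0.122, adjusted p = 0.00107), and at 801, 753, 815 and 629 CPM in HF-fed Maf1hep-/- mice, against 534, 662, 579 and 475 CPM (log2(FC) 0.42, SE 0.127, adjusted p = 0.0129). The diets did not overlap in Ctrl mice of this line, but Chow-fed Ctrl mice of the whole-body cohort had 533 to 651 CPM of F5. In Maf1hep-/- mice the diets overlapped by 1 mouse each, and the F5 call was lost with the GC offset (log2(FC) 0.27, adjusted p = 0.0657). F10 and F7 were called lower in Ctrl livers (log2(FC) -0.28 and -0.24). With all 11 Chow-fed Ctrl mice together, edgeR called neither (log2(FC) -0.19 and -0.25, adjusted p = 0.158 and 0.155). F2, F9, F11 and F13b were called in neither genotype.

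Antithrombin was lower on the HF diet in both genotypes. Serpinc1, which inhibits thrombin and factor Xa, was at 1320, 1260, 1310, 1480 and 1210 CPM in HF-fed Ctrl mice, against 1730, 1910, 1930 and 1770 CPM on chow (log2(FC) -0.47, SE 0.0909, adjusted p = 0.000362). In Maf1hep-/- mice Serpinc1 was at 1390, 1320, 1420 and 1570 CPM on HF, against 1930, 1740, 1860 and 1740 CPM on chow (log2(FC) -0.35, SE 0.0963, adjusted p = 0.00676). No HF-fed mouse reached a Chow-fed one on the TMM scale. Under library totals both calls were lost, with a log2(FC) of -0.07 in Ctrl (adjusted p = 0.461) and -0.03 in Maf1hep-/- livers (adjusted p = 0.816). Protein C (Proc) and Proz were called lower in Ctrl livers (log2(FC) -0.54 and -0.24), as were Kng1 (-0.40) and the plasmin inhibitor Serpinf2 (-0.23). With all 11 Chow-fed Ctrl mice together, edgeR no longer called Proc (log2(FC) -0.29, adjusted p = 0.14), Proz (-0.11, adjusted p = 0.417) or Serpinf2 (-0.19, adjusted p = 0.226). Under library totals the Proc call was also lost (-0.15, adjusted p = 0.291). Serpind1, Pros1 and Plg were called in neither genotype. Kng2 was called higher in Maf1hep-/- livers (log2(FC) 0.27).

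Among fibrinogen and the pore, 3 members were called, each in 1 genotype, and each call was lost when any of several single mice was left out. Fgb was called lower in HF-fed Ctrl livers, at 3340, 3320, 3470, 3300 and 3970 CPM against 8980, 4100, 3710 and 4090 CPM on chow (log2(FC) -0.58, SE 0.235, adjusted p = 0.0471), but without Chow-fed mouse 1 its log2(FC) was -0.18 (adjusted p = 0.39). Fga and Fgg were called in neither genotype. C8a was called higher in Ctrl livers (log2(FC) 0.39, adjusted p = 0.0401), with values between 0.30 and 0.45 when single mice were left out, and of 0.22 with the GC offset (adjusted p = 0.256). C8b was called lower in Maf1hep-/- livers (log2(FC) -0.69, adjusted p = 0.0251), and it was not without HF-fed mouse 1 (-0.47, adjusted p = 0.0584), Chow-fed mouse 3 (-0.60, adjusted p = 0.0698) or Chow-fed mouse 4 (-0.65, adjusted p = 0.0566). C6, C8g, C9 and Hc, which encodes C5, were called in neither genotype.

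Scaling and base composition bore on the smaller diet differences. Dividing by library totals alone gave a median over all genes of 0.41 in Ctrl and 0.35 in Maf1hep-/- livers, against 0.01 and 0.02 with TMM scaling, so the signs given are relative to the bulk of genes. Under library totals the values of F10, Proz, Serpinf2 and F7 in Ctrl livers were above 0 and that of Kng1 was 0. Of the members sharing no same-strand exon, 11 had 50% GC or more. In Ctrl livers 0 of these were called higher and 6 lower, against 5 higher and 3 lower of the 23 with less. In Maf1hep-/- livers the counts were 0 and 1, against 7 and 2. Among all genes sharing no same-strand exon, 15% of those with 50% GC or more were called higher and 36.7% lower in Ctrl livers. The rest had 36.2% and 16.7%. In Maf1hep-/- livers the shares were 12.7% and 31.8%, against 31.9% and 14.8%. The part of base composition in the members' diet values was not tested beyond the GC offset given among the alternatives.

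Other genes of the pathways, from lists taken alongside the members, moved in either direction with diet. Over all genes, 25.3% were called higher and 28.3% lower in Ctrl livers, and 21.8% and 25.1% in Maf1hep-/- livers. Of 16 other coagulation and fibrinolysis genes, 5 were called higher and 2 lower in HF-fed Ctrl livers, and 7 and 2 in Maf1hep-/- livers. Examples are von Willebrand factor (Vwf), with a log2(FC) of 0.91 in Ctrl and 1.10 in Maf1hep-/- livers, and the plasmin cofactor Anxa2, with 1.34 and 1.85. Of 28 other complement genes, 7 were called higher and 9 lower in Ctrl livers, and 5 and 7 in Maf1hep-/- livers. C7, a pore component, had a log2(FC) of 2.78 and 2.76, and C1ra, a protease of the C1 complex, -0.71 and -0.91. Levels of C7 were low, at 0.483 ± 0.29 CPM (SD) in Chow-fed and 3.24 ± 0.698 CPM in HF-fed Ctrl livers of the floxed line. Chow-fed Ctrl livers of the whole-body cohort had 1.07 ± 0.484 CPM of C7. Of 9 genes of the vitamin K cycle and factor export, 1 was called higher and 2 lower in Ctrl livers, and 0 and 1 in Maf1hep-/- livers. Vkorc1, the vitamin K reductase that anticoagulant drugs block, had a log2(FC) of -3.46 and -3.90, and shares 47.7% of its transcript with Gm21974.

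Of 16 acute phase regulators and targets, 2 were called higher and 5 lower in HF-fed Ctrl livers, and 2 and 2 in Maf1hep-/- livers. Over all genes, 53.6% and 46.9% were called in either direction. Cebpb, a transcription factor of the acute phase response, had a log2(FC) of -4.72 and -3.99, and Cebpd one of -2.21 and -1.74. Cebpb was at 15.1 ± 6.03 CPM (SD) in Chow-fed and 0.564 ± 0.175 CPM in HF-fed Ctrl livers of the floxed line. Chow-fed Ctrl livers of the whole-body cohort had 7.02 ± 2.91 CPM of Cebpb. Cebpd was at 4.29 ± 2.59 CPM (SD) in Chow-fed and 0.917 ± 0.267 in HF-fed Ctrl livers of the floxed line. In Chow-fed Ctrl livers of the whole-body cohort it was at 1.06 ± 0.235 CPM, near the HF level. Of 12 liver transcription factors, 2 were called higher and 6 lower in Ctrl livers, and 2 and 5 in Maf1hep-/- livers. Among them Foxa2, which encodes a pioneer factor of liver genes, had a log2(FC) of -1.92 and -1.73. Of 12 Kupffer cell markers, 7 were called higher and 2 lower in HF-fed Ctrl livers, with summed levels of 401 to 589 CPM against 257 to 355 CPM on chow. Of 5 erythroid markers 4 were called lower, at 54.9 to 95.2 CPM against 85.4 to 297 CPM. Chow-fed Ctrl livers of the whole-body cohort had 307 to 574 CPM of the Kupffer cell markers and 65.2 to 209 CPM of the erythroid markers. Both ranges overlap those of the HF-fed Ctrl livers. The part of these markers in the members' values was not tested.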

How the data were processed

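Liver RNA of 29 mice was sequenced by the authors, who trimmed reads with TrimGalore, aligned them with STAR to mm10 and quantified genes with RSEM. The deposited table holds expected counts per gene, not normalized, which need not be whole and were rounded here. The HF columns hold whole numbers only. The paper names no separate counting for them, and why they differ is not given in the sources used here. Annotation came from Gencode vM21 (GRCm38) and promoters from RefSeq. The authors' own edgeR version was 3.32.1, and the number of RUVr factors they used is not given in the sources used here.

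Counts were tested with edgeR 4.0.16 in R 4.3.3 (glmQLFit, glmQLFTest; TMM; genes at 1 CPM in at least 1 mouse of the fit; Benjamini-Hochberg over all genes tested, threshold 0.05). Genotypes were tested within cohorts, diets and their interaction in 1 fit of 17 mice, and the 2 knockouts in 1 fit of 29. CPM levels used 1 TMM scaling of 29 mice, and levels per kb used principal transcript lengths. Library totals were 25.5 to 75.7 M counts. GC content was available for 12983 genes. Scripts were tested on simulated data. Alternatives included DESeq2 1.42.0, limma 3.58.1 (voom, with 1 or 3 RUVr factors), other scalings and filters, a GC offset and each mouse left out.

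The members and lists were chosen with earlier results of these data known. Named in each comparison are up to 8 members with the smallest p among those under 0.05 unadjusted and averaging at least 1 CPM (the 3 smallest where fewer pass), the 5 highest and lowest levels and CVs, and up to 3 called genes of each other list; others are marked as named after their values were seen. Replicate numbers were checked for pairing by correlating same-numbered deviations from the group means. In the HF cohort the correlations were 0.414, 0.122, 0.268 and 0.266, and in the Chow cohorts some were below 0. The paper states that the data it tested were not paired. The main fits therefore used no pairing, and a block by replicate number is given as an alternative only. Labels do not say whether mice shared litters or cages. Some results of genes on the lists are not reported here.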

Additional observations from a re-analysis of the deposited data

Results flagged for a closer look

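In groups of 4 to 7 mice, 17 of 222 combinations of member and group held 1 mouse far from the rest, where about 1 in 20 is reached by chance. Of these, 5 were in mouse 1 of the Chow-fed Ctrl mice of the floxed line: Fga at 7630 CPM (others 2770 to 3110), Fgb at 8980 (3710 to 4100), Fgg at 6130 (2170 to 2460), Cfb at 1470 (1050 to 1080) and C4bp at 410 (all others 381). In whole-body Ctrl mouse 1, Serpinc1 was at 2300 CPM (1600 to 1760), Proz at 401 (238 to 286) and C8b at 771 (184 to 419). In whole-body Ctrl mouse 2, F2 was at 721 CPM (1160 to 1280), C4b at 492 (943 to 1210) and C8g at 111 (152 to 183).

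The remaining 6 were spread over 4 groups. F11 was at 110 CPM in Maf1-/- mouse 3 (67.7 to 73.3), and Plg at 1640 CPM in Chow-fed Maf1hep-/- mouse 1 (1450 to 1480). In HF-fed Maf1hep-/- mice, Pros1 was at 107 CPM in mouse 2 (78.4 to 81) and C4b at 1800 CPM in mouse 3 (1320 to 1340). In HF-fed Ctrl mice, Fgb was at 3970 CPM in mouse 5 (3300 to 3470) and Serpind1 at 508 CPM in mouse 3 (453 to 469).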

How the results depend on the processing

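In the whole-body cohort, members called numbered 0, but 7 with 1 and 12 with 3 RUVr factors, 4 with all 29 mice in 1 fit, and between 0 and 9 when single mice were left out (9 without Ctrl mouse 2). All genes called numbered 2, against 319 by DESeq2, 4299 and 6131 with RUVr factors and 2266 with all mice. For HF-fed Maf1hep-/- against Ctrl, 1 member (Cfi, adjusted p = 0.0456 by limma-voom with Benjamini-Hochberg adjustment) was called with 3 RUVr factors, among 175 genes; leaving out mice gave 0, and the Cfb value ranged between -0.17 (without Maf1hep-/- mouse 3) and 0.29 around 0.09. All genes called there numbered 2, against 56 by DESeq2. For the difference of the 2 knockouts, members called were 0, but 2 and 8 with 1 and 3 RUVr factors, among 1989 and 3244 genes. With mice left out they were 0 to 3 (3 without whole-body Ctrl mouse 2, 1 without Maf1-/- mouse 2). The members' median of 0.005 was -0.11 with a GC offset. No setting called a member in Chow-fed Maf1hep-/- livers or for the difference between diets.

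For diet in Ctrl livers, 17 members were called, 10 with all 11 Chow-fed Ctrl mice and 13 to 16 with mice left out. The median of -0.092 was 0.305 under library totals, -0.185 with a GC offset and -0.128 to -0.013 with mice left out. Over members sharing no same-strand exon it was -0.027. Under library totals F10 turned to 0.11 and Proz, Serpinf2 and F7 to 0.16. In Maf1hep-/- livers 13 were called, 23 under library totals with a median of 0.358, and 11 to 13 with mice left out. Called under every alternative fit were Cfb, C2, Masp1, F12, Mbl1, Klkb1 and F5 in Ctrl livers (7 of 17). In Maf1hep-/- livers they were Cfb, C2, Masp1, Klkb1, F12, C4bp, Mbl2, Mbl1 and Cfi (9 of 13). Each alternative fit used the same deposited counts, so none bears on how reads of Cfb, C2 and Klkb1, which share exons, were counted. Where values changed, the cause was not tested.

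With the replicate block, no member was called in any genotype comparison, and 13 and 14 were called for diet; it moved no count of members by more than 1.5 times, while all genes called were 45 with it and 2 without in the HF cohort, and 1 and 2 in the whole-body cohort. In the HF cohort, the Mbl2 adjusted p (edgeR) was 0.327 and the C6 log2(FC) was -0.93 with the block, though the paper states that its data were not paired. Diet, read length and depth are confounded, groups hold 4 to 7 mice, and members sharing exons or near-identical copies have uncertain levels.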
